A study of Caenorhabditis elegans with 2 samples.

Results

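The genes described here encode splicing factors and Sm proteins of *Caenorhabditis elegans*. The measurement is the ChIP-seq signal for the transcription factor LIN-11 at their promoters. The members were the protein-coding genes whose Ensembl name begins with snr-, lsm-, rsp-, prp-, sftb-, sfa- or uaf-, and 41 of 19973 protein-coding genes met that rule. The rule itself uses names and no measured value. LIN-11 is a LIM homeodomain protein known for its roles in the vulva, the uterus and certain neurons.

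Chromatin was taken from whole L2 larvae of mixed sex and unknown age, of the transgenic strain OP62 with genotype unc-119(ed3) III; wgIs62, in which LIN-11 carries a C-terminal GFP-FLAG tag. The labels give 1 group with 2 biological replicates, so nothing was compared between conditions. Stock of replicate 1 came from the Snyder laboratory and that of replicate 2 from the CGC, and the labels give sonication for replicate 1 and a fragment size range for replicate 2. The antibody entry reads lin-11, and the description names an eGFP fusion. Tissue is not resolved in whole larvae, so strong binding in few cells and weak binding in many cannot be told apart.

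Pre-mRNA splicing is carried out by the spliceosome, which is built from small nuclear RNAs with their proteins. Sm proteins form a ring on most of these RNAs, and the related Lsm proteins form a ring on U6 RNA or, in a cytoplasmic version, act in mRNA decay. SR proteins bind exons and recruit the machinery, while PRP proteins and the SF1, U2AF and SF3B factors act at the splice sites and in the catalytic steps.

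The data were lists of ChIP-seq regions on genome build ce11, each region with a signal value and a summit given by the authors. Each replicate list and the list from pooled reads held 30000 regions. These are candidates, which include weak ones, and pooled signal ran from 5.43 to 356. The authors' optimal list held 1917 regions, and they were the 1917 strongest of the pooled list, with signal of at least 27.8. A gene was scored by the strongest summit lying between 1000 bp upstream and 200 bp downstream of the start of any protein-coding transcript. Ranks count regions of one list from the strongest. Signal was not compared in size between lists, because their scaling is not stated. The lin-11 gene itself had 5 optimal peaks in its window, the highest at 153. Sequencing depth is unknown.

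Optimal LIN-11 peaks were found at many of the splicing gene promoters. A pooled candidate lay in the window of 33 of 41 members (80.5%), and of 8153 of 19932 other protein-coding genes (40.9%). An optimal peak lay at 20 of these 33 members, or 60.6% (Wilson 95% interval 43.7 to 75.3). Among the other genes with a candidate it lay at 1655, or 20.3% (19.4 to 21.2). Of all genes, with or without a candidate, 48.8% of members and 8.3% of other genes had one. The intervals cover the counting of genes only, and genes that share a region are not independent.

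Median pooled signal was 34.9 over the 33 members, with quartiles of 9.86 and 62.8. Over the other genes it was 11.1, with quartiles of 7.54 and 23.3. Among genes with an optimal peak, the medians lay closer, at 61.7 for members and 50.2 for other genes. Of all genes with a candidate, the strongest 10% included 11 members (33.3% of the 33) and 807 other genes (9.9%). No member reached the highest values of the list. The strongest member, *rsp-6*, ranked 113 among pooled regions.

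Promoter windows had a median size of 1201 bp in both sets and a mean of 1390 bp for members and 1453 bp for other genes. A single coding-transcript start was annotated for 70.7% of members and 73.7% of other genes. No member lies on chromosome X. With the other genes restricted to autosomes, a comparison added after seeing the data, 20.4% had an optimal peak.

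The strongest regions of the 20 members were 18 distinct optimal regions. With a second peak in the windows of *rsp-1* and *rsp-2*, the members' windows held 19. Regions printed are the 3 strongest, the 2 in the windows of a pair of members, and all others that hold the word CGCTCCA. That word is therefore commoner among them than among all 18. For each printed region, the 101 bases centred on the summit are given from the RefSeq genome of WBcel235, the assembly of ce11. They run 5′ to 3′ on the strand of the member named first. Capitals mark CGCTCCA or TGCGTC, or their reverse complements TGGAGCG and GACGCA, words picked after these sequences had been seen.
rsp-6, IV:7791364-7791464 minus strand: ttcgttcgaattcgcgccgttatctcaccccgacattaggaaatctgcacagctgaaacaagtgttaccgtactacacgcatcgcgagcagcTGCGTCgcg
prp-8, III:8164016-8164116 plus strand: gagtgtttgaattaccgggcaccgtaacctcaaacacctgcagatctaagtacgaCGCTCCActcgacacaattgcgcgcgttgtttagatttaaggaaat
snr-4, V:11980023-11980123 minus strand: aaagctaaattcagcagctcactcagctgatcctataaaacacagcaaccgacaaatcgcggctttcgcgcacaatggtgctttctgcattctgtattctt
rsp-1 and rsp-2, II:11453176-11453276 plus strand: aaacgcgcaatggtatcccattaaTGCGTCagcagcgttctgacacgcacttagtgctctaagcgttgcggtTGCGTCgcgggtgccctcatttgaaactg
rsp-5 and snr-3, II:6489936-6490036 plus strand: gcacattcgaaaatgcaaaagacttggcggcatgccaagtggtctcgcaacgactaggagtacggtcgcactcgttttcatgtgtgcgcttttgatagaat
prp-19, III:5172640-5172740 minus strand: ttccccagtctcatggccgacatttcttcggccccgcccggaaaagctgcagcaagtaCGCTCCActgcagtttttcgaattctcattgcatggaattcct
rsp-3, III:12688138-12688238 minus strand: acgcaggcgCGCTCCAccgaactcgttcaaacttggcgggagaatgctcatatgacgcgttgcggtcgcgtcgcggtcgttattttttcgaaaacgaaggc
lsm-3, IV:13386199-13386299 plus strand: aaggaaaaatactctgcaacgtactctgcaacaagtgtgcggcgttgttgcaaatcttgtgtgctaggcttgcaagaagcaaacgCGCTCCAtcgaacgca
rsp-8, III:11825789-11825889 plus strand: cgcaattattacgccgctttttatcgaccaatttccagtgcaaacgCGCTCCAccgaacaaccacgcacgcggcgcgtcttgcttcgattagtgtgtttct
In this set of sequences *prp-8*, *prp-19*, *rsp-3*, *lsm-3* and *rsp-8* hold CGCTCCA, and *rsp-6* and the *rsp-1*/*rsp-2* interval hold TGCGTC. Neither word occurs in the printed bases of *snr-4* or of the *rsp-5*/*snr-3* interval. Among regions not printed, that of *prp-40* was III:9521712-9522035, that of *lsm-1* II:11126457-11126780 and that of *snr-1* IV:17087457-17087780. That of *lsm-7* was IV:10933112-10933435, that of *rsp-7* II:10658784-10659107, that of *snr-6* III:12429748-12430071 and that of *sftb-1* III:4269554-4269877.

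The SR protein genes had the largest count of promoters with an optimal peak, but the roles are too small to be ranked. Of 8 rsp- genes, 7 had a candidate, and all 7 of these were optimal peaks with signal of 45.0 or more and a median of 62.8. The Wilson interval of that share, 64.6 to 100%, overlaps that of the Sm core genes (5 of 6, 43.6 to 97.0%). The strongest peaks of the 7 SR genes were 6 distinct regions, including that shared with *snr-3*. Only *rsp-6* and *rsp-8* kept an optimal peak when shared regions were dropped. All 7 SR genes also had a matching summit, within 100 bp, among the 1917 strongest regions of each replicate.

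At *rsp-6*, which encodes the ortholog of human SRp20 (SRSF3), pooled signal was 114. It was 53.8 (rank 65) in replicate 1 and 57.2 (rank 231) in replicate 2. The summit lay 185 bp upstream of the start, in sequence between genes, and in the window of no other gene. This was the strongest region of any member.

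*rsp-1* and *rsp-2* are neighbours on opposite strands and had the same strongest region, at II:11453064-11453387, so the binding cannot be assigned to one of them. Its pooled signal was 75.1 (rank 347), with 35.3 (rank 241) in replicate 1 and 41.7 (rank 471) in replicate 2. The summit was 271 bp upstream of *rsp-2* and 748 bp upstream of the first coding-transcript start of *rsp-1*. It was 136 bp from the annotated *rsp-1* gene start, which belongs to a non-coding transcript. A second optimal peak, at II:11453696-11454019 with signal 41.8, lay 116 bp upstream of that coding-transcript start, within the annotated *rsp-1* gene. It was 903 bp upstream of *rsp-2*.

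*rsp-5* and *snr-3*, which encodes the SmD1 protein, also face away from each other, with starts 404 bp apart. Their shared region, II:6489824-6490147, had pooled signal of 45.8 (rank 968). It had 19.5 (rank 903) in replicate 1 and 26.8 (rank 1046) in replicate 2. The summit was 179 bp upstream of *rsp-5* and 225 bp upstream of *snr-3*. One region therefore counts for an SR and an Sm gene, and the 20 members are not independent observations.

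**Figure D1:**
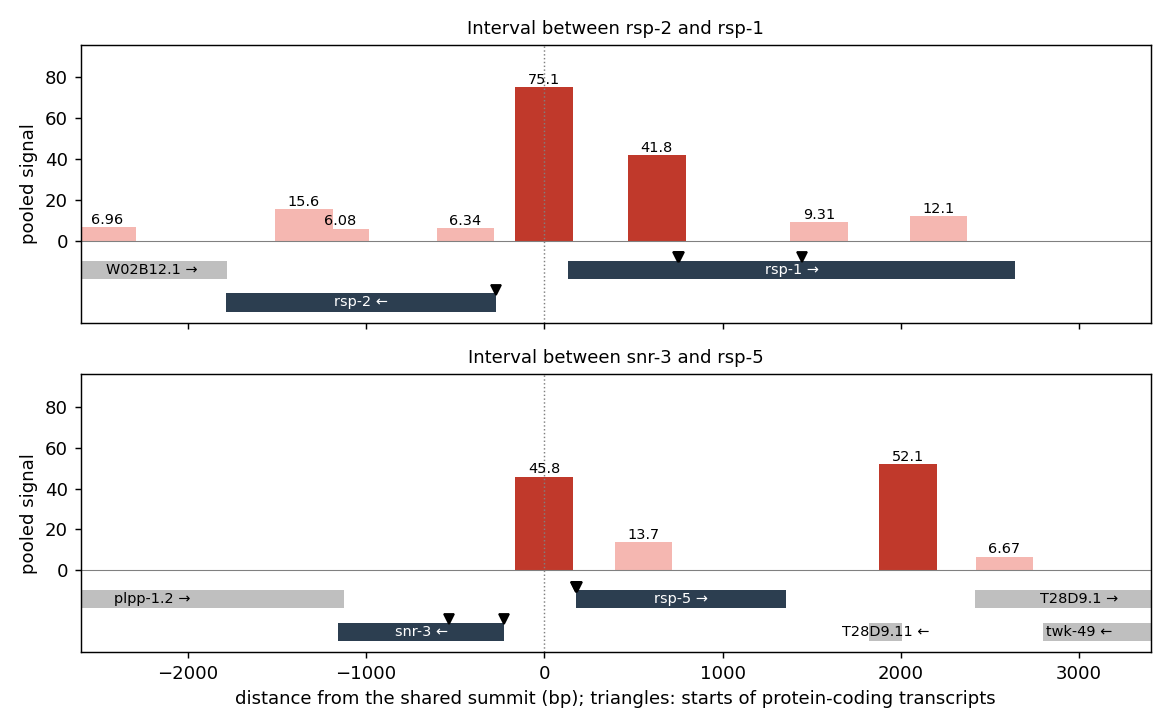
Candidate regions around the intervals between *rsp-2* and *rsp-1* (top) and between *snr-3* and *rsp-5* (bottom). The x axis is distance from the shared summit in bp and bar height is pooled signal, with optimal peaks in dark red and other candidates in pale red. Gene bodies are drawn below with arrows for strand and triangles for protein-coding transcript starts, and the strongest region between the genes of each pair has signal of 75.1 at the top and 45.8 at the bottom.

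Among the other SR genes, *rsp-3*, the ortholog of SF2/ASF, had 62.8 in the pooled list, 24.1 (rank 602) in replicate 1 and 33.1 (rank 733) in replicate 2. *rsp-7* had 45.2 pooled, with 17.7 (rank 1076) and 25.1 (rank 1149) in replicates 1 and 2. *rsp-8* had 45.0 pooled, with 25.1 (rank 553) and 19.7 (rank 1627). The summits stood 266, 260 and 579 bp upstream of *rsp-3*, *rsp-7* and *rsp-8*. *rsp-4*, the ortholog of SC35, was the exception in its role and had no pooled candidate. It had only a weak candidate in replicate 2, with signal 4.2, and its nearest optimal peak was 1318 bp from a start.

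Of 7 Sm core genes, 6 had a candidate and 5 an optimal peak. *snr-4*, which encodes SmD2, was the strongest, with pooled signal of 106 (rank 141), 43.7 (rank 132) in replicate 1 and 59.1 (rank 211) in replicate 2. Its summit was 350 bp upstream, in the window of no other gene. *snr-1*, encoding SmD3, had 61.1 in the pooled list, and the replicates ranked it apart. Its region was at rank 2031 in replicate 1 (signal 12.5) and rank 356 in replicate 2 (signal 48.0).

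*snr-6*, for SmE, and *snr-2*, for SmB, were nearer the end of the optimal list. *snr-6* had 34.9 pooled, 11.3 (rank 2484) in replicate 1 and 22.1 (rank 1375) in replicate 2. *snr-2* had 34.3 pooled, 18.7 (rank 971) in replicate 1 and 13.4 (rank 2661) in replicate 2. The replicates thus placed them in opposite order. *snr-7*, for SmG, had no optimal peak, with a pooled candidate of 13.6 inside a coding exon 663 bp upstream. *snr-5*, for SmF, had no candidate.

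**Figure D2:**
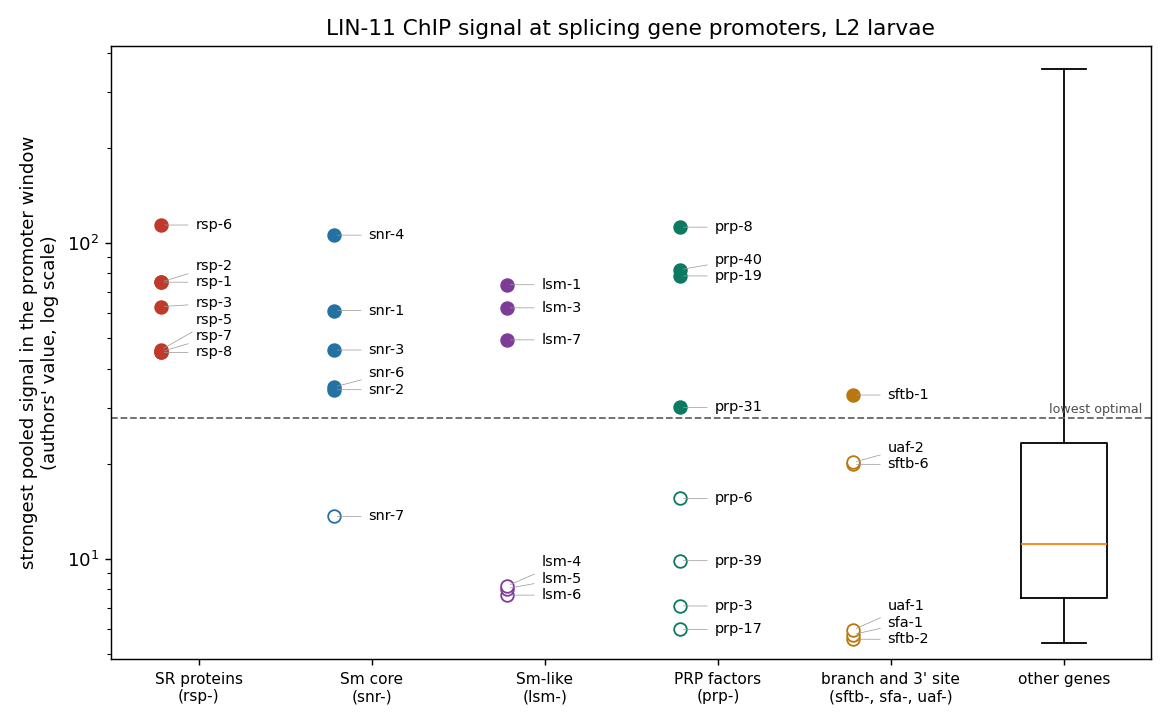
Strongest pooled signal in the promoter window (y axis, the authors' value on a log scale) for each of the 33 members with a candidate, by role, and for the 8153 other genes as a box of the quartiles with whiskers to the extremes. Filled points have an optimal peak and open points do not, and the dashed line is the lowest optimal signal, 27.8. All 7 SR points lie above the line. Below it lie 5 of 6 points for branch and 3′ site factors and the box of other genes (upper quartile 23.3).

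The Sm-like genes divided evenly, with 3 of the 6 that had a candidate carrying an optimal peak. *lsm-1*, specific to the cytoplasmic ring, had pooled signal of 73.7, with 26.4 (rank 504) in replicate 1 and 46.8 (rank 375) in replicate 2. *lsm-3*, whose protein belongs to both rings, had 62.3 pooled. Its region stood at rank 145 in replicate 1 (42.5) and rank 1606 in replicate 2 (19.8). It was also the most distant summit, 954 bp upstream of *lsm-3* and only 75 to 158 bp from the starts of *Y62E10A.23*, *mdt-9* and *Y62E10A.20*. *lsm-7*, also for a protein of both rings, had 49.3 pooled, 18.4 (rank 998) in replicate 1 and 31.3 (rank 825) in replicate 2. *lsm-4*, *lsm-5* and *lsm-6* had weak candidates of 8.19, 8.05 and 7.67. *lsm-8*, which defines the nuclear ring, had no candidate.

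Among 13 PRP genes, 8 had a candidate and 4 an optimal peak, and 3 of these were among the strongest members. *prp-8* encodes the U5 protein at the catalytic core of the spliceosome. It had pooled signal of 112 (rank 120), 42.6 (rank 143) in replicate 1 and 68.8 (rank 137) in replicate 2. *prp-40*, for a U1-associated factor, had 82.2 pooled, with 29.1 (rank 397) and 53.2 (rank 278) in replicates 1 and 2. *prp-19*, for the ubiquitin ligase of the PRP19 complex, had 78.6 pooled, with 24.2 (rank 598) and 54.0 (rank 269). All 3 were within the 1917 strongest regions of both replicates. *prp-31*, for a protein of the U4/U6 particle, had only 30.1 pooled. It was near the bottom of the optimal list and far down the list of replicate 1, at rank 10931 (5.64), against rank 1168 (24.8) in replicate 2.

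The remaining PRP genes lacked an optimal peak. *prp-6* had a candidate of 15.5, *prp-39* of 9.86, *prp-3* of 7.09 and *prp-17* of 5.97. No pooled candidate lay at *prp-4*, *prp-9*, *prp-18*, *prp-21* or *prp-38*. *prp-3*, *prp-4* and *prp-6* encode proteins of the tri-snRNP, as *prp-31* does, and *prp-9* and *prp-21* encode SF3A subunits. *prp-39* encodes a U1-associated factor, *prp-17* and *prp-18* encode factors of the second catalytic step, and *prp-38* encodes an activation factor.

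All 6 genes for branch site and 3′ splice site factors had a candidate, and 1 had an optimal peak. That is 16.7% (Wilson 95% interval 3.01 to 56.4), near the 20.3% of other genes with a candidate. That gene was *sftb-1*, for the largest SF3B subunit, with pooled signal of 33.0 and rank 1539. Replicate 2 had the region at rank 1031 (27.1). The strongest candidate of replicate 1 at this gene was at rank 28609 (2.92), with a summit 172 bp away, so only replicate 2 had a summit within 100 bp of the pooled one. *uaf-2*, for the small U2AF subunit, had 20.2, with 7.53 in replicate 1, from a summit 978 bp away, and 16.0 in replicate 2. *sftb-6* had 19.9, and here replicate 1 was the stronger by rank, at 1883 (13.03). Replicate 2 had rank 26797 (3.34) there, from a summit 133 bp away. *uaf-1*, for the large U2AF subunit, had 5.95, *sfa-1*, for SF1, 5.76, and *sftb-2*, like *sftb-6* for an SF3B subunit, 5.56. The members on either side of the optimal list's lowest signal of 27.8 were thus *prp-31* at 30.1 and *uaf-2* at 20.2.

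Among the 1917 strongest regions of both replicates were the promoters of 15 of the 33 members (45.5%), against 1107 of 8153 other genes (13.6%). The replicates entered the pooled list, so this is not separate evidence. Of the 20 members with an optimal peak, 15 (75%) were in that set, as were 66.8% of other genes with one. Replicate 2 alone placed *snr-1*, *snr-6*, *sftb-1* and *prp-31* that high, and replicate 1 alone placed *snr-2*. Summits of the replicates lay close to the pooled summit. The gap was at most 45 bp in replicate 1 for 19 of 20 members, *sftb-1* excepted, and at most 26 bp in replicate 2 for all 20.

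**Figure D3:**
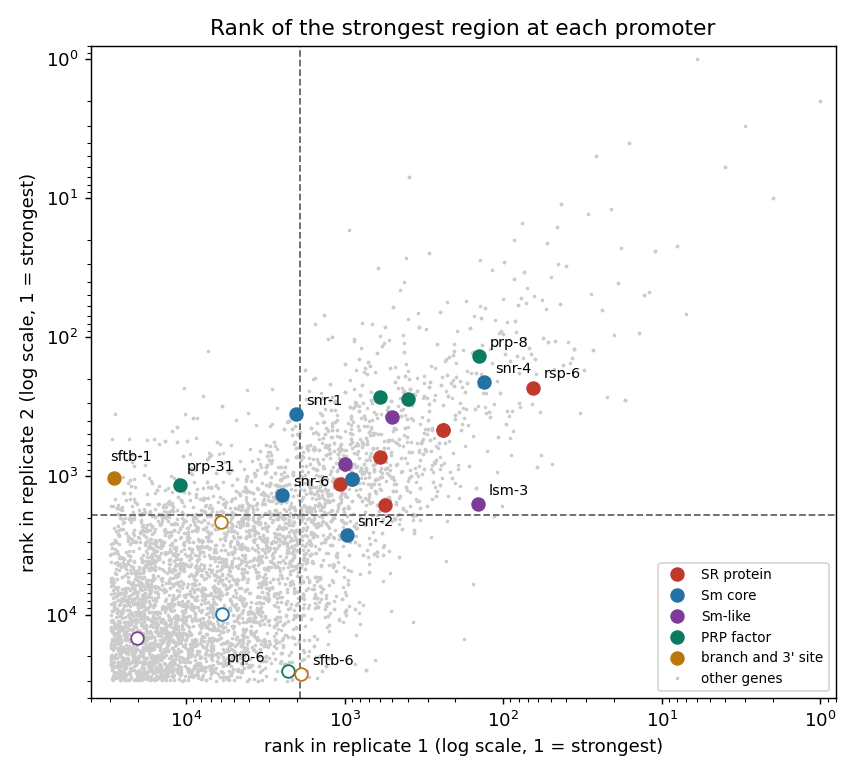
Rank of the strongest region at each promoter in replicate 1 (x axis) and replicate 2 (y axis), both on log scales with 1 as the strongest. Coloured points are members by role, filled where they have an optimal peak, and grey points are other genes. *rsp-6*, *prp-8* and *snr-4* sit nearest the strong corner, and *sftb-1* and *prp-31* stand far out on the replicate 1 axis, at ranks 28609 and 10931.

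The strongest summit of all 20 members with an optimal peak lay upstream of the start and between protein-coding genes. Of other genes with an optimal peak, 94.6% had the summit upstream and 83.4% between genes. The median distance to the nearest such transcript start was 294 bp (quartiles 227 and 434, range 179 to 954), against 235 bp (quartiles 132 and 410) for other genes. Distances over 100 and up to 500 bp were found for 16 members (80%) and 63.1% of other genes.

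Most of these promoters were shared. The summit lay in the window of another protein-coding gene for 17 of 20 members (85.0%), and for 53.7% of other genes with an optimal peak. On autosomes, where all members lie, the share of such other genes was 59.9%. For all 17, a gene on the opposite strand also had the summit upstream of its start. The same held for 788 of the 889 other genes with a shared summit. Of all genes with an optimal peak, shared or not, these were 85.0% of members and 47.6% of other genes (53.0% on autosomes). Such partners were *rps-9*, a ribosomal protein gene opposite *lsm-1*, and *mat-1*, an anaphase-promoting complex gene opposite *prp-31*. *rsp-7* shared its peak with *snu-13*, which encodes a U4 particle protein. The summit was nearer to the start of a partner outside the list than to the member's for *prp-19* (30 bp from *K10D2.5*), *lsm-7* (71 bp from *dnc-1*), *sftb-1* (27 bp from *R10E4.1*), *lsm-1* (257 bp from *rps-9*), *rsp-3* (130 bp from *spin-4*), *snr-1* (181 bp from *snx-13*), *snr-2* (130 bp from *W08E3.4*) and *lsm-3*. When each region was given to the nearest start only, 11 members kept an optimal peak (52.4% of 21, against 17.3% of other genes). When regions in the window of more than 1 gene were dropped, 3 members kept one, namely *rsp-6*, *snr-4* and *rsp-8* (20% of 15, Wilson 95% interval 7.05 to 45.2, against 12.5% of other genes). Which gene a shared region serves was not tested.

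**Figure D4:**
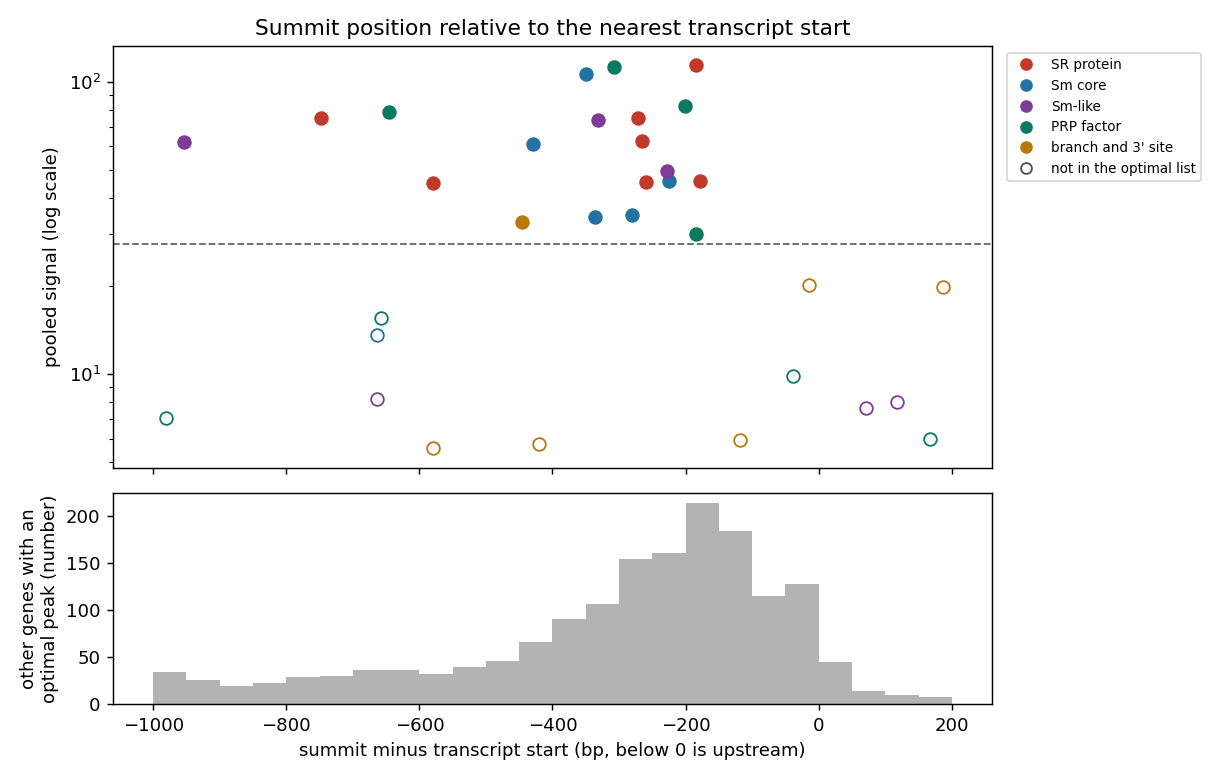
Top, pooled signal (y axis, log scale) against the position of the summit relative to the nearest protein-coding transcript start (x axis, bp, below 0 is upstream) for members, coloured by role and open where there is no optimal peak; the dashed line is the lowest optimal signal, 27.8. Bottom, the number of other genes with an optimal peak at each position. All 20 filled points are upstream, 179 to 954 bp from the start.

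Of the 13 members with a candidate but no optimal peak, 8 (61.5%) had the summit in a coding exon, 2 (15.4%) in an intron and 3 (23.1%) between genes. Of 6498 such other genes, 26.7% had it in a coding exon, 15.5% in an intron and 49.6% between genes. A candidate in both replicates was found for 5 of the 13 (38.5%) and for 52.2% of these other genes. By chromosome, an optimal peak was found for 2 of 5 members with a candidate on I, where 23.3% of other genes with a candidate had one, and for 6 of 8 on II (other genes 18.0%). It was found for 7 of 9 on III (other genes 27.1%), 4 of 6 on IV (19.0%) and 1 of 5 on V (15.5%). For the 21 members without an optimal peak, the nearest one was 1318 to 165743 bp from a start, with a median of 7385 bp, and no optimal peak lay in a member's body outside the window. In *C. elegans*, closely spaced genes on the same strand may be transcribed together from the first promoter. A same-strand gene ended less than 500 bp upstream of 9 members, and 7 of these (77.8%) lacked an optimal peak, as did 94.6% of 3606 other genes so placed. In 5 of the 7 (71.4%) the upstream gene had one, as it did for 13.1% of such other genes without a peak of their own. The signal was 171 at *sqd-1* ahead of *lsm-8*, 89.4 at *plrg-1* ahead of *prp-38*, 73.4 at *hmgs-1* ahead of *prp-39*, 50.2 at *acs-2* ahead of *lsm-5* and 32.9 at *ubc-3* ahead of *lsm-6*. Spacing is not an operon annotation, and co-transcription of these pairs was not tested. Without the 9 genes, and without other genes so placed, 18 of 26 members with a candidate (69.2%) and 21.8% of other genes had an optimal peak.

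At the 18 strongest optimal regions of members, median GC content of the 101 bases at the summit was 50% for members, 50.5% at 1189 regions of other genes and 33.7% in windows centred 300 bp upstream of all genes. TAATTA, a core recognised by many homeodomain proteins, was in none of the 18, in 1.18% of other genes' optimal regions and in 5.67% of the upstream windows. TAAT alone, which TAATTA contains, was in 7 (38.9%), 31.2% and 67.9%. GAGAGA was in 1 of the 18 (5.56%) and in 24.0% of other genes' regions. Both strands were searched.

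The capitalised words in the printed sequences recurred. CGCTCCA was in 5 of the 18 regions (27.8%), in 6.56% of other genes' optimal regions and in 0.877% of upstream windows. TGCGTC was in 7 (38.9%), 19.1% and 2.56%. None of the 13 candidate regions at members without an optimal peak held either word. Such regions of other genes held CGCTCCA in 2.09% and TGCGTC in 5.49%, so none among 13 is near those shares. Because the words were picked from the members' own sequences, these shares are descriptions only.

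Other genes of the splicing pathway, 83 in all and listed by name in 6 classes, gave a smaller share. A candidate lay at 67 of them (80.7%) and an optimal peak at 21, or 31.3% of the 67 (Wilson 95% interval 21.5 to 43.2), with a median signal of 17.8. The strongest of the 83 was *spk-1*, for an SR protein kinase, with pooled signal of 117.03 (47.4 in replicate 1 and 69.3 in replicate 2). It shared its region with *rheb-1*. *plrg-1*, for a partner of PRP19, had 89.4 (38.3 and 51.6 in replicates 1 and 2). *syf-2* had 86.9 (18.4 and 65.9), in a region shared with *K04G7.1*. *hrpr-1*, for an hnRNP protein, had 79.7 (19.2 and 59.4). *rsr-1*, for an SR-related protein, had 74.2 (20.9 and 54.8), in a region shared with *sri-5*. All 5 had optimal peaks. By class, an optimal peak lay at 8 of 20 genes of splicing regulators and hnRNP proteins with a candidate. The PRP19 complex and helicases had 6 of 17, the U4/U6 and U5 particles 4 of 14, and exon junction and export 2 of 6. The U1 and U2 particles had 1 of 5, and snRNP assembly none of 5 (Wilson 95% interval 0 to 43.4). The share was 20.3% over all protein-coding genes with a candidate outside the members, and the classes are too small to be ranked.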

How the data were processed

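ChIP-seq region lists on ce11 were used, 4 in all (2 replicates, pooled and optimal). Per the labels and deposited notes, regions were called against a control alignment, and the irreproducible discovery rate procedure (IDR) gave the optimal list. The caller, the aligner and the IDR cutoff were not given in the sources used here. The authors gave each region a signal (its scaling not stated), a deposited −log10 q-value and a summit offset. The −log10 q-value was at its ceiling of 3.54 for all 20 members with an optimal peak, so regions were ranked by signal. A ranking by signal has no error of its own, and depth is unknown.

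Summits (region start plus offset) were placed against coding-transcript starts of the Ensembl release 115 annotation of WBcel235, in Python 3.11.15 with numpy 2.4.6, scipy 1.17.1 and matplotlib 3.10.9. Coordinates count from 1. As a build check, 10015 of 10041 translation starts read ATG. Summits matched at 100 bp or less. Shares have Wilson 95% intervals, and no test across genes was run. Scoring was tested on simulated data. Every member is named, with replicate values where it has an optimal peak, and so are the 5 strongest other pathway genes. Of 89 pathway names, 83 matched. Members and lists were chosen with earlier results of these data known. In all, 13 alternatives were planned and 3 were added after seeing the data. The ce10 lists were not used here.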

Additional observations from a re-analysis of the deposited data

How the results depend on the processing

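The number of members with an optimal peak (20) stayed within 1.5 times under 9 of 12 alternatives, and the share (60.6%) stayed within its interval under 12 of 14. In the main setting, 25 of 41 members (61.0%) and 26.6% of other genes had a candidate in both replicates. Taking the nearest start only gave 11 members with an optimal peak, 14 with a candidate in both replicates, 8 among the strongest of both and 13 other splicing genes. Dropping regions in the window of more than 1 gene gave 3 members (20% of 15), a median signal of 9.31, 6 with a candidate in both replicates, 3 among the strongest of both and 7 other splicing genes. By construction the first assigns a shared region to 1 gene and the second removes it. For the counts in both replicates, other genes' shares under these alternatives are not given. The stronger 50% of optimal peaks left 12 members (36.4%, against 11.7% of other genes).

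Using 1 replicate's strongest regions in place of the optimal list gave 17 to 19 members (51.5% to 57.6%) and 23 other splicing genes either way. Among alternatives chosen after seeing the data, peaks strong in both replicates left 15 members (45.5%, against 12.9% of other genes). Starts of every annotated transcript gave 20 (60.6%, against 20.3%). Where regions in more than 1 gene's window were dropped, the members' interval (7.05% to 45.2%) included the other genes' 12.5%, and in the other 13 alternatives that gave a share it lay above theirs. No paired analysis was possible because the series has 1 group. With 2 replicates and unknown depth, a missing candidate says only that none entered a list of 30000 regions.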
